A study of Mus musculus with 20 samples.

Results

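MHC class I antigen presentation was followed through 10 genes chosen by symbol: the heavy chains H2-K1 and H2-D1, the light chain B2m, the transporter subunits Tap1 and Tap2, the loading chaperone Tapbp, the immunoproteasome subunits Psmb8, Psmb9 and Psmb10, and the transactivator Nlrc5. Of these, 7 were measured among 13107 genes in an experiment on Myc, and 5 (H2-K1, H2-D1, B2m, Tapbp and Psmb10) among 11210 genes in an experiment on hydroxyurea (HU), a drug that stalls DNA replication. Tap1, Psmb8 and Psmb9 were not analysed here, nor were Tap2 and Nlrc5 in the HU experiment.

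The cells were p19/Nras, a line of mouse liver cancer from a tumor that Nras drove in p19/Arf-null mice, so that every group carried both lesions, and were profiled by RNA-seq. In the Myc experiment, Trim33-WT cells (guide sgCtrl) and 2 deleted lines, Trim33-KO1 and Trim33-KO2 (CRISPR deletion of the ubiquitin ligase Trim33) carried either the Ctrl vector pWZL or a vector for Myc, with 2 libraries in each of 6 groups. In the HU experiment, Trim33-WT cells and a Trim33-KO line received vehicle or 1 mM HU for 4 h, with 2 libraries in each of 4 groups. Which KO line was used with HU, and whether a line is 1 clone, is not given in the sources used here. The study describes some of its RNA-seq as independent experiments but does not tie these to libraries, and the labels do not say whether the libraries of a group came from separate cultures. P-values therefore measure the spread between these libraries, which may be technical.

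MHC class I molecules display short peptides from proteins made inside the cell to CD8+ T cells and to natural killer cells. Proteasomes cut the proteins, and immunoproteasome subunits take the place of the constitutive catalytic ones under interferon. The Tap1-Tap2 transporter carries peptides into the endoplasmic reticulum, where tapasin (Tapbp) holds an empty heavy chain with B2m beside the transporter until a peptide binds. Nlrc5 joins the RFX, CREB/ATF and NF-Y factors bound at the X1, X2 and CCAAT boxes of class I promoters, and tumor cells often lower the whole pathway.

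Since these promoter boxes are the shared regulatory feature of the family, the promoters of the 5 members matched in RefSeq are shown: 300 bases of GRCm38.p6, 250 before and 50 from the annotated start, on the gene's own strand. Capitals mark matches, on either strand, to the X1 box (CCNNGCAAC), the X2 box (TGACG), the CCAAT box by its own letters, the interferon response element (GAAA, any 2 bases, GAAA), the NF-kB site (GGGNNTTCC) and the E-box (CACGTG). H2-K1 (first of 2 entries) lies at chr17:34000298-34000597 on the minus strand, H2-D1 at chr17:35262844-35263143 on the plus strand, B2m at chr2:122147437-122147736 on the plus strand, Tapbp at chr17:33919228-33919527 on the plus strand and Psmb10 at chr8:105938343-105938642 on the minus strand.
H2-K1: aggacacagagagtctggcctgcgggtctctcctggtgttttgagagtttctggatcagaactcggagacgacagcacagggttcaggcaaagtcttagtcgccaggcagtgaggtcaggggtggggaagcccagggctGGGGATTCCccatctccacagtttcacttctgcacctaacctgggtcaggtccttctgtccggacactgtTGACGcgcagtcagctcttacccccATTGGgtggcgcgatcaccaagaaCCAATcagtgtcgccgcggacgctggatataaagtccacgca
H2-D1: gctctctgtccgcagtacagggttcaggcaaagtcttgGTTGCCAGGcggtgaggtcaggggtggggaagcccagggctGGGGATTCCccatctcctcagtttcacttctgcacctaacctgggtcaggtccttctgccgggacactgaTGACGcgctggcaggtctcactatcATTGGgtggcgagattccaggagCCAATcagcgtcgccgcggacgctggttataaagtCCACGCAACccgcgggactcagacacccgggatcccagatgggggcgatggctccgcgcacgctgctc
B2m: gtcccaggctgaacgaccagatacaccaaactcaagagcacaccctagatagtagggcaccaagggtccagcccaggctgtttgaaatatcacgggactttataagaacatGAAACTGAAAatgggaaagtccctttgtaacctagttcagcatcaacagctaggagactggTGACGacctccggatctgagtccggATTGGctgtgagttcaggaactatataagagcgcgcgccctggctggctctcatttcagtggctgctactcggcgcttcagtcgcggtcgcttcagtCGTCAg
Tapbp: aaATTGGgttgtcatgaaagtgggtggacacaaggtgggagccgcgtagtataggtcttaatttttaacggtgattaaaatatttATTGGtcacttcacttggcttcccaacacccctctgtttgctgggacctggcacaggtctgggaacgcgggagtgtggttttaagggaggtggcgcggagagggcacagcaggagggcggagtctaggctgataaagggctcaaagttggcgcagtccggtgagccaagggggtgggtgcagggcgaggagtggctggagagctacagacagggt
Psmb10: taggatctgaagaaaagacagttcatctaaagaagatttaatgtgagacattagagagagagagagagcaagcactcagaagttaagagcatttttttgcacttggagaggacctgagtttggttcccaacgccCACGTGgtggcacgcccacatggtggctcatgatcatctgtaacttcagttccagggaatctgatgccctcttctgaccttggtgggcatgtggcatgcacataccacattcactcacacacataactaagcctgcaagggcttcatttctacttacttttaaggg

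H2-K1, H2-D1 and B2m, which encode the assembled class I molecule, each held TGACG and, downstream of it, ATTGG, the CCAAT box read on the other strand. The first bases of these were 25 bases apart in all 3 promoters. TGACG started at -41, -101 and -78 from the annotated start. These distances depend on the annotated start. In H2-K1 and H2-D1 the NF-kB match, starting at -111 and -171, was shifted along with the pair. Across 27025 promoters of the same length, TGACG was found in 21%, CCAAT in 37.9%, and the pair at this distance and in this order in 26 (0.0962%). H2-K1 and H2-D1 each held an NF-kB match (GGGGATTCC, motif in 5.72% of promoters). H2-D1 alone of the 5 printed sequences held matches to the X1 letters (4.92%), at -212 and -18. The match at -212 lay well upstream of TGACG at -101, and that at -18 lay downstream of the pair. Neither was directly before TGACG, and whether either serves as an X1 box was not tested. The H2-K1 sequence ends in ccacgca, the first bases of the H2-D1 match CCACGCAAC at -18, so a match there could have been cut off. B2m alone held an exact interferon response match (GAAACTGAAA, 3.49%). Only exact matches were marked, so variants of a box are missed. H2-K1 and H2-D1 both hold cagtttcacttctgcacc after the NF-kB match, which resembles this element on the other strand without matching it exactly. They are therefore not shown to lack such an element. Tapbp held CCAAT matches at -248 and -165 without TGACG, and Psmb10 held an E-box (7.24%). None of the 5 matched the E2f site TTTNGCGC, found in 1.38% of promoters. Matches are descriptions of the sequence, and the spacing was noticed in the members' own promoters.

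In NCBIM37 (mm9), the build to which the authors mapped, H2-K1 (chr17:34132962-34137278), Tapbp (chr17:34052844-34066235), Tap2 (chr17:34340472-34353266) and H2-D1 (chr17:35399675-35404444) lie in the MHC on chromosome 17. B2m (chr2:121973422-121978819) lies on chromosome 2, and Psmb10 (chr8:108459628-108462292) and Nlrc5 (chr8:96996663-97051172) lie on chromosome 8. GENCODE vM1 on this build annotates Nlrc5 as a lincRNA without a coding transcript. The annotation by which the authors counted is not given in the sources used here. Of the 50-base windows of the transcripts, 7.29% of H2-K1 and 12.8% of H2-D1 occur in other genes, most often H2-D1 for H2-K1 and H2-Q2 for H2-D1. Levels of these heavy chains are uncertain for this reason, by an amount that these shares do not give. Windows of B2m and Psmb10 were not shared.

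Libraries held 14753177 to 17949430 counts in the Myc experiment and 2315327 to 3082202 in the HU experiment. Levels below are CPM (counts scaled to library size) after TMM normalization, and a gene is called at an adjusted p below 0.01, or below 0.05 for HU against vehicle. Trim33 mRNA was 246 and 258 CPM in WT Ctrl, against 123 and 130 in KO1 Ctrl and 201 and 207 for KO2 Ctrl. With the Myc vector it was 131 and 155 in WT, against 185 and 193 in the libraries labelled KO1 and 124 and 125 for those labelled KO2, so that the libraries labelled KO1 Myc held more Trim33 mRNA than WT Myc. Of 654 genes called between KO2 Ctrl and KO1 Ctrl with a log2 fold change of at least 1 in size, 636 (97.2%) had the opposite sign between the libraries labelled KO2 Myc and KO1 Myc. Labels were kept, and comparisons that average both KO lines, which do not depend on their numbering, stand beside the single lines. Of the hepatocyte markers, Afp, Krt8 and Krt18 summed to 1861 to 3924 CPM in the Myc experiment, nearly all of it from the keratins, while Alb, Apoa1, Ttr and Hnf4a had no count row. Of the immune and antigen-presenting cell markers, 2 of 13 had a row (Cd68 and Cd74), with a summed level of 2.66 to 6.67 CPM. In bulk libraries, fewer cells of a kind and less RNA per cell cannot be told apart.

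In the Myc experiment, Trim33-KO cells with the Ctrl vector held less mRNA for the class I molecule and for Tap2 than Trim33-WT cells. They held more for Tapbp and Psmb10. Tap2 was rare and may have a row only through its WT libraries, as described below. Tap1, the other subunit of the transporter, was not analysed. H2-K1, H2-D1, B2m and Tap2 were lower in both KO lines, from 1.26-fold for B2m in KO1 to 7.29-fold for H2-K1 in KO2 among the 3 well counted genes. Tapbp and Psmb10 were higher in both lines, and Nlrc5 was called higher in KO1 and not called in KO2. By edgeR's quasi-likelihood test, 7 of 7 measured members were called in KO1 against WT, 4 lower and 3 higher, where 52.2% of all genes tested were called (25.5% higher and 26.7% lower). In KO2 against WT, 6 of 7 were called, 4 lower and 2 higher, where 49.9% of all genes were called (23.3% higher and 26.6% lower). With so many genes called, the count of members says little by itself. Both comparisons use the same WT libraries. The median log2 fold change of the members was -0.33 in KO1 and -0.69 in KO2, against -0.0036 and -0.01 over all genes.

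**Figure D1:**
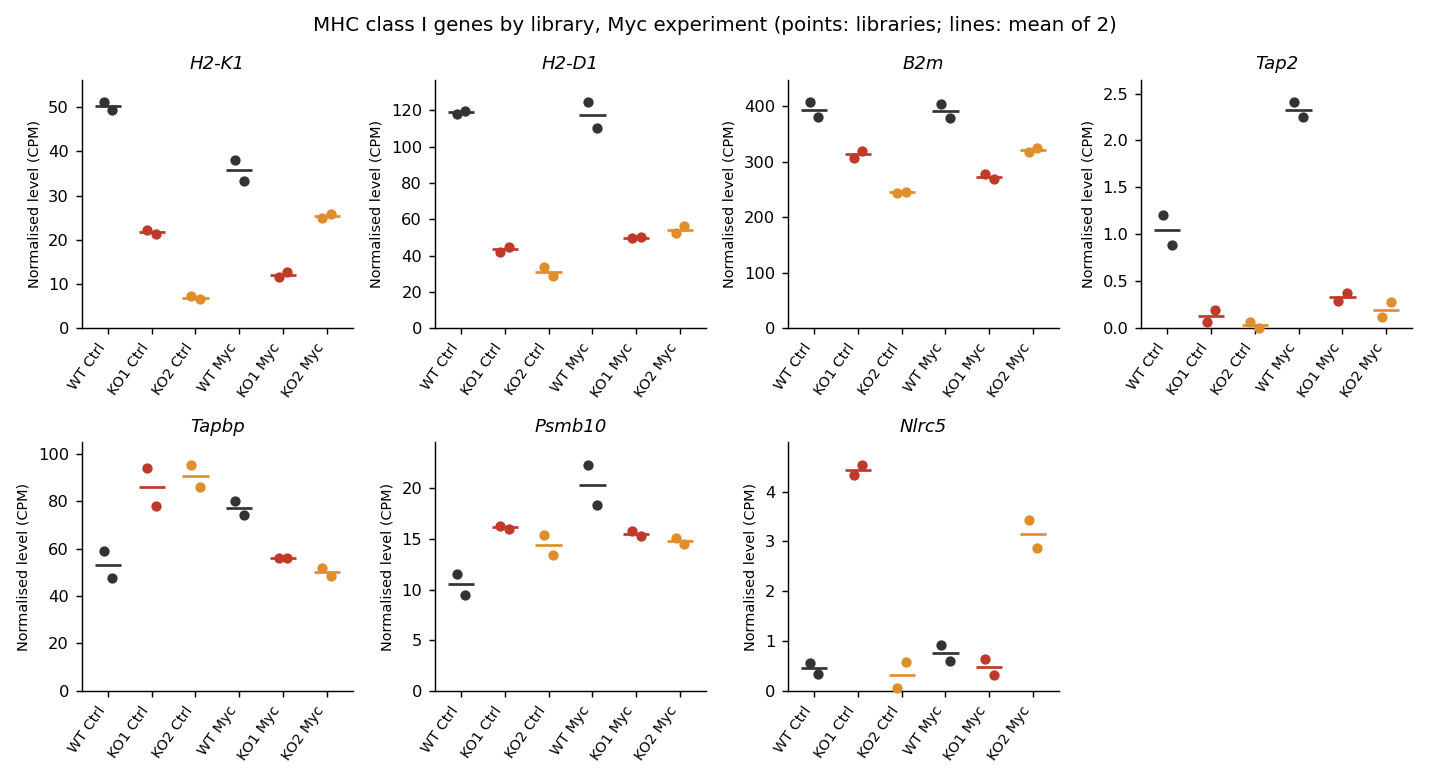
Normalised level (CPM, vertical axis from 0) of the 7 measured genes in the 6 groups of the Myc experiment, with 1 point per library and a line at the mean of 2. WT libraries lie above all KO libraries for H2-K1, H2-D1, B2m and Tap2, at 33.4 to 51.1 against 6.57 to 25.9 CPM for H2-K1, and Nlrc5 is high in KO1 Ctrl and in the libraries labelled KO2 Myc.

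H2-K1 encodes a classical heavy chain, the chain that holds the peptide. Its level was 51.1 and 49.4 CPM in WT Ctrl, against 22.3 and 21.3 in KO1 Ctrl and 7.18 and 6.57 for KO2 Ctrl. With the Myc vector it was 38.0 and 33.4 CPM in WT, against 11.6 and 12.6 in the libraries labelled KO1 and 24.9 and 25.9 for those labelled KO2. The 6 groups did not overlap, with WT Ctrl on top and KO2 Ctrl at the bottom. H2-K1 fell by 1.2 on the log2 scale in KO1 Ctrl (SE 0.0835, 2.3-fold, adjusted p = 3.14e-09) and by 2.87 in KO2 Ctrl (SE 0.10, adjusted p = 2.15e-12). The difference between the KO lines was itself called, at -1.66 (SE 0.11, adjusted p = 9.65e-09).

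H2-D1 encodes the other classical heavy chain, and was the better counted of the pair. It stood at 117.9 and 119.8 CPM in WT Ctrl, against 42.2 and 44.6 in KO1 Ctrl and 33.5 and 28.9 for KO2 Ctrl. With the Myc vector it stood at 124.4 and 110.5 CPM in WT, against 49.6 and 50.1 in KO1 and 52.3 and 56.2 for KO2 as labelled. WT libraries with and without Myc overlapped, and every KO library lay below every WT library. H2-D1 fell 2.74-fold in KO1 Ctrl (log2 -1.45, SE 0.0781, adjusted p = 1.31e-10) and 3.81-fold in KO2 Ctrl (log2 -1.93, SE 0.0809, adjusted p = 1.28e-11). Between the KO lines the difference was smaller than for H2-K1, at -0.48 (SE 0.0861, adjusted p = 5e-04), and was no longer called without KO1 Ctrl replicate 2 (-0.44, adjusted p = 0.0103) or KO2 Ctrl replicate 2 (-0.37, adjusted p = 0.0167).

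B2m encodes the light chain that all class I heavy chains share. It was the most abundant member, at 407.4 and 380.3 CPM in WT Ctrl, against 306.9 and 320.2 in KO1 Ctrl and 243.6 and 246.1 for KO2 Ctrl. In Myc libraries it was 404.6 and 378.4 CPM in WT, against 278.0 and 268.3 in KO1 and 318.1 and 324.7 for KO2 as labelled. All KO libraries lay below all WT libraries, by less than for the heavy chains. B2m fell by 0.33 on the log2 scale in KO1 Ctrl (SE 0.0554, adjusted p = 7.34e-05) and by 0.69 in KO2 Ctrl (SE 0.0558, 1.61-fold, adjusted p = 2.68e-08). KO2 Ctrl was lower than KO1 Ctrl by -0.36 (SE 0.0559, adjusted p = 0.000137).

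Tap2, a subunit of the peptide transporter, was rare in these cells. It had 17 and 13 counts in WT Ctrl, against 1 and 3 in KO1 Ctrl and 1 and 0 for KO2 Ctrl. With Myc it had 37 and 38 counts in WT, against 5 and 6 in KO1 and 2 and 5 for KO2 as labelled. Every WT library held more than every KO library. The rarest gene with a row totalled 26 counts over the 12 libraries, so rare genes may have been removed before deposit. Pooled counts of Tap2 were 30 and 75 in the WT groups, against 4, 1, 11 and 7 in the KO groups. Tap2 may thus have a row only through WT, where it was high, and its fall is to be read with that limit. Pooled over libraries and scaled to depth, WT Ctrl exceeded KO1 Ctrl by a ratio of 7.88 (exact 95% interval 2.78 to 30.8, counting error only) and KO2 Ctrl by a ratio of 32 (5.32 to 1300). The fitted log2 fold changes were -2.91 (SE 0.586, adjusted p = 0.000403) and -4.70 (SE 0.767, adjusted p = 6.01e-05), the latter -7.06 without KO2 Ctrl replicate 1, where the remaining library holds no Tap2 count. At these counts the KO lines did not differ detectably (log2 -1.79, 95% interval -4.41 to 0.83, adjusted p = 0.305).

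Tapbp, the chaperone tapasin, went the other way although its gene lies near H2-K1. It stood at 58.9 and 47.5 CPM in WT Ctrl, against 94.1 and 78.1 in KO1 Ctrl and 95.2 and 85.9 for KO2 Ctrl. In Myc libraries it was 79.9 and 74.1 CPM in WT, against 56.0 and 55.9 in KO1 and 51.8 and 48.5 for KO2 as labelled. The KO lines thus lay above WT with the Ctrl vector and below WT with Myc. Tapbp rose by 0.70 in KO1 Ctrl (SE 0.10, adjusted p = 1.46e-05) and by 0.77 in KO2 Ctrl (SE 0.0998, adjusted p = 5.42e-06). The KO lines overlapped, with a difference of 0.07 (95% interval -0.13 to 0.28, adjusted p = 0.611).

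Psmb10 encodes a catalytic beta subunit of the immunoproteasome. Its level was 11.6 and 9.43 CPM in WT Ctrl, against 16.3 and 16.0 in KO1 Ctrl and 15.4 and 13.5 for KO2 Ctrl. With Myc it was 22.3 and 18.3 CPM in WT, against 15.8 and 15.3 in KO1 and 15.1 and 14.5 for KO2 as labelled. The 8 KO libraries spanned only 13.5 to 16.3 CPM, with the WT Ctrl libraries below them and the WT Myc libraries above them. Psmb10 rose by 0.62 in KO1 Ctrl (SE 0.128, adjusted p = 0.000486) and by 0.46 in KO2 Ctrl (SE 0.130, adjusted p = 0.00596). Neither call held without WT Ctrl replicate 2 (0.48, adjusted p = 0.0149, and 0.32, adjusted p = 0.0958). The KO2 call was also lost without KO2 Ctrl replicate 1 (0.36, adjusted p = 0.0711).

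Nlrc5, the transactivator of the class I genes, was rare in most groups. It had 8 and 5 counts in WT Ctrl, against 65 and 69 in KO1 Ctrl and 1 and 9 for KO2 Ctrl. In Myc libraries it had 14 and 10 counts in WT, against 11 and 5 in the libraries labelled KO1 and 58 and 52 for those labelled KO2. KO1 Ctrl and the libraries labelled KO2 Myc stood far above the other groups, among which WT Ctrl, KO2 Ctrl and KO1 Myc overlapped. Nlrc5 rose by 3.27 in KO1 Ctrl (SE 0.392, adjusted p = 1.99e-06), a ratio of counts of 9.81 (exact 95% interval 5.54 to 18.9, counting error only). In KO2 Ctrl the value was -0.46 (SE 0.700, adjusted p = 0.588), not distinguishable from WT at these counts, and it ranged from -2.65 to 0.37 when each library was left out. The KO lines differed by -3.73 (SE 0.412, adjusted p = 3.64e-06), and by -5.92 without KO2 Ctrl replicate 2. H2-K1, H2-D1, B2m and Tap2 were lower than in WT both in the line with high Nlrc5 mRNA and in the line without. Between the lines, H2-K1, H2-D1 and B2m were called higher in KO1 Ctrl, where Nlrc5 was high, and Tap2 was not called. With Myc, H2-K1 and B2m were called higher in the libraries labelled KO2, where Nlrc5 was high, and H2-D1 and Tap2 were not. The part of Nlrc5 in these differences was not tested.

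**Figure D2:**
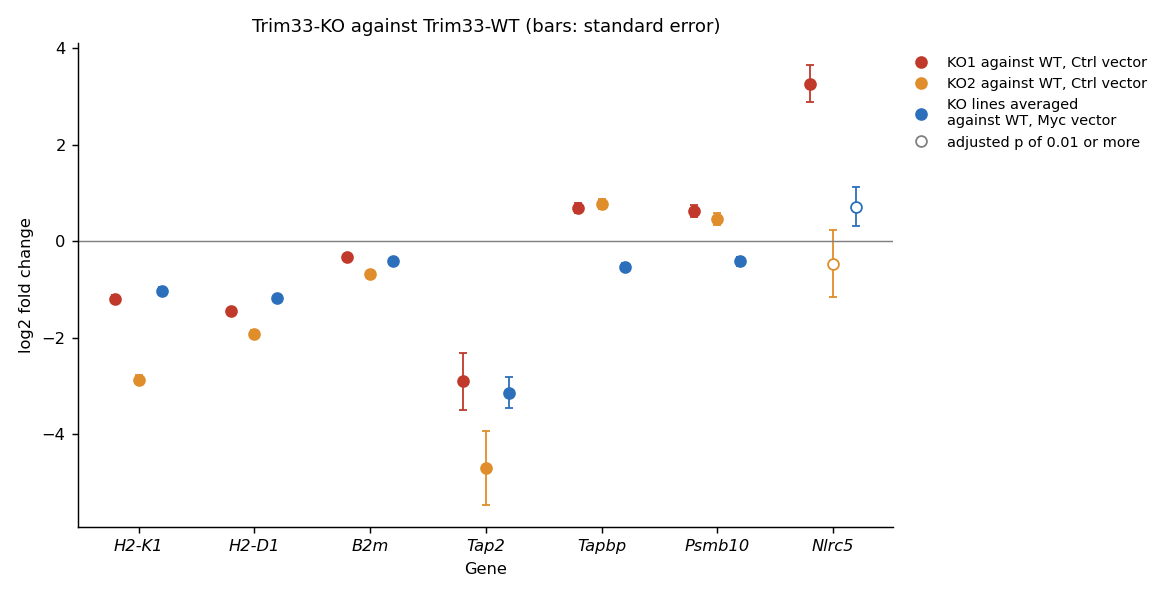
Log2 fold change of Trim33-KO against Trim33-WT (vertical axis) for each gene (horizontal axis), for KO1 and KO2 with the Ctrl vector and for both lines averaged with Myc. Bars are standard errors and open points have an adjusted p of 0.01 or more. H2-K1, H2-D1, B2m and Tap2 lie below 0 in all 3 comparisons, and Tapbp and Psmb10 above 0 with the Ctrl vector and below 0 with Myc.

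Between the KO lines with the Ctrl vector, 4 of 7 members were called, all lower in KO2 (H2-K1, H2-D1, B2m and Nlrc5), where 18.3% of all genes were called (8.33% higher and 9.96% lower). Between the libraries labelled KO2 Myc and KO1 Myc, H2-K1 (1.07, SE 0.0946, adjusted p = 2.59e-07), B2m (0.23, SE 0.0554, adjusted p = 0.00428) and Nlrc5 (2.70, SE 0.389, adjusted p = 5.92e-05) were called, where 18.5% of all genes were called. All 3 had the opposite sign to the Ctrl comparison, as had most genes that differed between the lines. The B2m call was lost without any 1 of the 4 libraries (adjusted p = 0.0189 to 0.0488).

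Per kilobase of exon in GENCODE vM1, B2m was at 458 CPM in WT Ctrl, H2-D1 at 45.9, H2-K1 at 19.3, Tapbp at 16.1, Psmb10 at 8.28, Tap2 at 0.276 and Nlrc5 at 0.0621. The light chain was thus the most abundant message and the transporter subunit and Nlrc5 the rarest. Within the 12 libraries of the Myc experiment, log2 CPM of H2-K1 and B2m had a Pearson r of 0.97, H2-D1 and Tap2 of 0.948, H2-D1 and B2m of 0.932 and H2-K1 and H2-D1 of 0.885. Tapbp had an r of -0.413 with H2-K1, -0.378 with H2-D1 and 0.492 with Psmb10, and Nlrc5 lay between -0.218 and 0.278 with every other member. These points share libraries and fall into 6 groups, so that r is a description. Among about 10296 genes with a mean of at least 5 CPM, the pattern most like H2-K1 was that of Tor3a (r = 0.979), like H2-D1 that of Ankrd1 (0.991), like B2m that of 2810025M15Rik (0.986), like Tap2 that of Plod1 (0.97), like Tapbp that of Psmd13 (0.959), like Psmb10 that of Timm10b (0.945) and like Nlrc5 that of Bag2 (0.958).

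Other antigen presentation genes, a list of 58 of which 51 were measured, were called about as often as all genes. In KO1 Ctrl 27 of 51 were called, 15 higher and 12 lower, where 52.2% of all genes were called, and in KO2 Ctrl 24, 8 higher and 16 lower, where 49.9% were called. The median log2 fold changes were -0.04 and -0.10. Of 11 other class I heavy chains, edgeR called 6 in KO1 (2 higher, 4 lower) and 9 in KO2 (2 higher, 7 lower). DESeq2 called 5 in KO1 and 6 in KO2, so the count in KO2 depends on the method. H2-T10 and H2-T22, nonclassical chains, rose by 1.30 (SE 0.169, adjusted p = 4.81e-06) and 1.08 (SE 0.0992, adjusted p = 9.66e-08) in KO1. In KO2, H2-T10 rose by 0.62 (SE 0.185, adjusted p = 0.0085). H2-Q8, H2-Q9 and H2-Q6 fell by 1.25, 1.12 and 1.05 in KO1 (adjusted p = 0.00246, 0.000455 and 0.00205). In KO2, H2-Bl fell by 2.31 (adjusted p = 0.00249), H2-Q8 by 2.01 (adjusted p = 0.000118) and H2-Q9 by 1.65 (adjusted p = 2.29e-05). Pooled over 2 libraries, H2-Bl had only 38 counts in WT Ctrl and 8 in KO2 Ctrl, and H2-Q8 had 84 and 22. The Q genes are near-identical copies among which reads may be split, so that single values are uncertain.

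Of 6 genes for loading and trimming in the endoplasmic reticulum, 4 were called in KO1 (3 higher, 1 lower) and 3 in KO2 (1 higher, 2 lower). Erap1, the peptidase that trims peptides there, rose by 0.55 (SE 0.102) and 0.43 (SE 0.102), and Tapbpl, a tapasin relative, fell by 0.66 (SE 0.127) and 0.62 (SE 0.126). Of 14 transcription factors, 10 were called in KO1 (6 higher, 4 lower) and 7 in KO2 (3 higher, 4 lower), where 52.2% and 49.9% of all genes were called, the share in KO2 being that of all genes. Irf1, an interferon-induced activator of class I genes, rose by 0.65 (SE 0.0710, adjusted p = 6.64e-07) in KO1 and 0.69 (SE 0.0708, adjusted p = 4.08e-07) in KO2. Stat2, a carrier of the type I interferon signal, rose by 0.89 in KO1 (SE 0.183, adjusted p = 0.000487), and the peptidase Npepps by 0.59 in KO2 (SE 0.0554, adjusted p = 1.3e-07). Rfxap, a subunit of the RFX complex at the X1 box, fell by 0.47 in KO1 (SE 0.0901, adjusted p = 0.00027) and 0.34 in KO2 (SE 0.0888, adjusted p = 0.00335). Single genes named here beyond the largest 3 in each direction were chosen after their values were seen (Erap1, Tapbpl and Rfxap, and Irf1 in KO1).

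**Figure D3:**
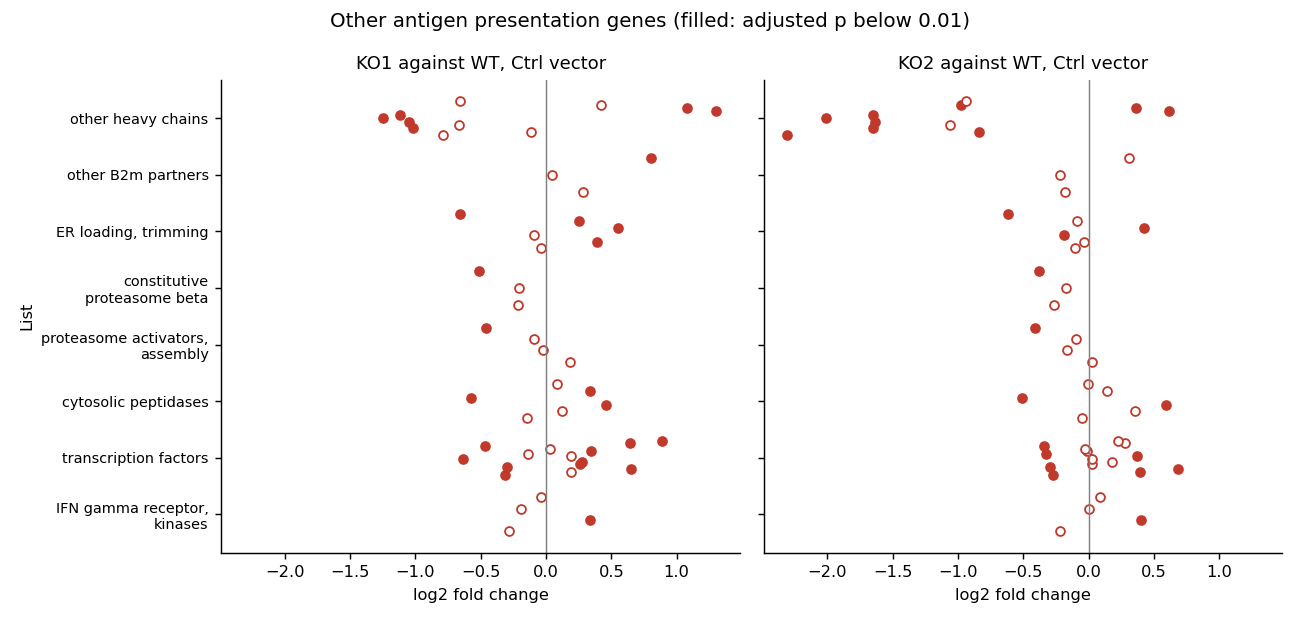
Log2 fold change (horizontal axis) of the 51 other antigen presentation genes by list (vertical axis), for KO1 and KO2 against WT with the Ctrl vector. Filled points have an adjusted p below 0.01. Of 11 other heavy chains, 4 lie lower and called by edgeR in KO1 and 7 in KO2, with 2 higher and called in each. DESeq2 called 5 heavy chains in KO1 and 6 in KO2.

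Genes of 26 promoters with TGACG and ATTGG at the spacing above included 19 measured ones, of which 16 are not members. The 16 still include H2-M3, a class I heavy chain of the wider list. By edgeR it was not called in KO1 Ctrl (-0.12, adjusted p = 0.616) and was called lower in KO2 Ctrl (-0.84, SE 0.214, adjusted p = 0.00286). In KO1 Ctrl 7 of the 16 were called lower, 4 higher and 5 were not called, where 26.7% of all genes were called lower and 25.5% higher. The counts in KO2 Ctrl were the same, where 26.6% and 23.3% were called. Tecpr1 fell by 2.17 (SE 0.0678, adjusted p = 2.03e-13) and 1.93 (SE 0.0665, adjusted p = 2.09e-12), and Trim26, which lies in the MHC, by 1.12 (SE 0.0824, adjusted p = 6.1e-09) and 1.01 (SE 0.0815, adjusted p = 2.41e-08). Nasp rose by 0.50 (SE 0.0569, adjusted p = 9.93e-07) and 0.67 (SE 0.0567, adjusted p = 4.3e-08), so that genes with the pair went both ways. H2-M3, Tecpr1, Trim26 and Nasp were named after their values were seen.

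Some markers of liver and other cell types differed between KO and WT cells with the Ctrl vector. Of all genes, 52.2% were called in KO1 (25.5% higher and 26.7% lower) and 49.9% in KO2 (23.3% higher and 26.6% lower). With so few markers per list, the counts of markers called say little by themselves. Krt19 and Sox9, of the biliary and progenitor list (2 of 4 with a count row), summed to 596 to 603 CPM in WT Ctrl, 102 to 108 in KO1 Ctrl and 163 to 169 in KO2 Ctrl. Both were called lower in each line. Of the hepatocyte markers, 2 of 3 were called lower in each line, with Afp at a mean of 31.6 CPM in WT Ctrl, 0.859 in KO1 Ctrl and 8.34 in KO2 Ctrl. Col1a1 and Pdgfrb, of the stellate and fibroblast list (2 of 3), summed to 45.7 to 46.7, 253 to 279 and 120 to 131 CPM. Both were called higher in KO1, but in KO2 they went apart, 1 called higher and 1 lower: Pdgfrb stood at a mean of 16.6 CPM in WT Ctrl and 102 in KO2 Ctrl, and Col1a1 at 29.6 and 23.5 CPM. Immune markers summed to 3.39 to 3.90, 3.02 to 3.19 and 2.87 to 4.10 CPM, a sum of levels that moved in opposite directions. Cd74, the invariant chain of MHC class II, had a mean of 1.74 CPM in WT Ctrl, 0.165 in KO1 Ctrl and 0.358 in KO2 Ctrl, and Cd68, a macrophage marker, 1.90, 2.94 and 3.13 CPM. Of this pair, 1 was called lower in each line. No endothelial marker of 3 had a row. The part of these markers in the class I differences was not tested.

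With Myc, Trim33-WT cells held more Psmb10 and Tapbp mRNA and less H2-K1, without a detectable change of H2-D1 or B2m. By edgeR's test 4 of 7 members were called, 3 higher and 1 lower, where 44.3% of all genes were called (21.6% higher and 22.7% lower). Psmb10 rose 1.93-fold (log2 0.95, SE 0.123, adjusted p = 8.02e-06) and Tapbp by 0.53 (SE 0.10, adjusted p = 0.000281), the latter not called without WT Ctrl replicate 2 (0.39, adjusted p = 0.0116). Tap2 rose by 1.15 (SE 0.305, adjusted p = 0.0043), a ratio of counts of 2.23 (exact 95% interval 1.44 to 3.53), but this was not called by DESeq2 (adjusted p = 0.0971) or without any 1 of the 4 libraries (adjusted p = 0.0105 to 0.0567). H2-K1 fell by 0.49 (SE 0.0782, adjusted p = 5.73e-05). H2-D1 was at -0.02 (95% interval -0.17 to 0.14), B2m at -0.01 (-0.13 to 0.11) and Nlrc5 at 0.71 (-0.51 to 1.93, adjusted p = 0.307). Beside these, 3 of 3 hepatocyte and 2 of 2 biliary or progenitor markers with a row were called lower, Krt19 and Sox9 summing to 325 to 408 CPM with Myc against 596 to 603 CPM without. Of the stellate or fibroblast markers 1 was called higher and 1 lower, and of the immune markers 1 was called lower. Their part in the result was not tested.

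In the KO lines the picture differed. Averaged over both lines, Tapbp fell by 0.74 with Myc (SE 0.0697, adjusted p = 2.74e-07), while H2-D1 rose by 0.50 (SE 0.0583, adjusted p = 2.77e-06) and H2-K1 rose by 0.52 (SE 0.0741, adjusted p = 2.27e-05), though the H2-K1 libraries of the groups overlapped. These 3 of 7 were called, 2 higher and 1 lower, where 42% of all genes were called (21.1% higher and 20.9% lower). B2m was at 0.10 (95% interval 0.01 to 0.18, adjusted p = 0.0483), Tap2 at 1.81 (0.41 to 3.22, adjusted p = 0.0299), Psmb10 at -0.01 (-0.19 to 0.17) and Nlrc5 at 0.03 (-0.63 to 0.68). As labelled, the single lines went apart. In KO1, 4 of 7 were called, all lower, where 36.1% of all genes were called (17.9% higher and 18.2% lower): H2-K1 by -0.85, B2m by -0.20, Tapbp by -0.62 and Nlrc5 by -3.19. In KO2, 5 were called, 4 higher and 1 lower, where 38.8% were called (20.2% higher and 18.6% lower): H2-K1 by 1.88, H2-D1 by 0.80, B2m by 0.39, Nlrc5 by 3.24 and Tapbp by -0.85. The fall of Tapbp was thus the call in the same direction in both labelled lines. B2m in KO1 was not called without any 1 of its 4 libraries (adjusted p = 0.0209 to 0.0792), and Nlrc5 in KO2 was 5.43 without KO2 Ctrl replicate 2. As the single-line values rest on labels that the line-specific genes contradict, no direction is drawn from them for a line. In the averaged lines, 3 of 3 hepatocyte, 1 of 2 biliary or progenitor and 2 of 2 stellate or fibroblast markers were called lower with Myc, and 1 of 2 immune markers was called higher. Their part in the result was not tested.

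The effect of Myc in the averaged KO lines differed from that in WT for 4 of 7 members, where 34.7% of all genes were called. It was lower for Tapbp by -1.27 (SE 0.122, adjusted p = 4.69e-07) and for Psmb10 by -0.96 (SE 0.149, adjusted p = 6.83e-05), and higher for H2-K1 by 1.01 (SE 0.108, adjusted p = 1.42e-06) and for H2-D1 by 0.52 (SE 0.0928, adjusted p = 0.000252). For B2m (0.11, 95% interval -0.04 to 0.25), Tap2 (0.66, -0.82 to 2.15) and Nlrc5 (-0.68, -2.14 to 0.77) the difference was not called. Line by line, 3 members were called in KO1 as labelled (Tapbp, Psmb10 and Nlrc5), where 37.3% of all genes were called, and 5 in KO2 (all but Tap2 and Nlrc5), where 32.8% were called. Without WT Myc replicate 2 the KO1 count was 5, with H2-K1 (-0.45, adjusted p = 0.0047) and B2m (-0.24, adjusted p = 0.00904) added. Nlrc5 in KO2, at 2.53 (adjusted p = 0.0182), was called without KO2 Ctrl replicate 2 (4.72, adjusted p = 0.00217) or WT Myc replicate 1 (2.86, adjusted p = 0.00828).

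**Figure D4:**
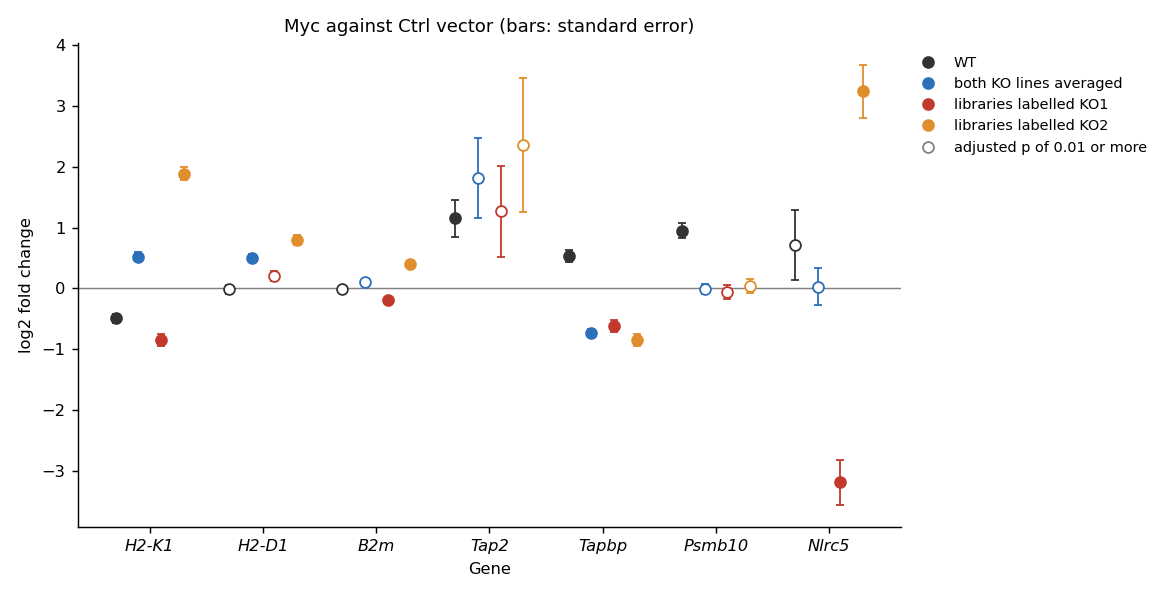
Log2 fold change of Myc against Ctrl vector (vertical axis) for each gene (horizontal axis), in WT, in both KO lines averaged and in each KO line as labelled. Bars are standard errors and open points have an adjusted p of 0.01 or more. Tapbp lies at 0.53 in WT and -0.74 in the averaged KO lines, and H2-K1 and Nlrc5 lie on opposite sides of 0 in the lines as labelled.

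With Myc, Trim33-KO cells again held less of the class I molecule and Tap2 than Trim33-WT cells, and here Tapbp and Psmb10 were lower as well. For both KO lines averaged, 6 of 7 members were called, all lower, where 33.8% of all genes were called (16% higher and 17.8% lower). H2-K1 fell by 1.02 (SE 0.0734, 2.03-fold, adjusted p = 1.34e-08), H2-D1 by 1.17 (SE 0.0630, 2.26-fold, adjusted p = 3.49e-10) and B2m by 0.40 (SE 0.0471, adjusted p = 4.08e-06). Tap2 fell by 3.14 (SE 0.326, adjusted p = 1.08e-06) and Tapbp by 0.54 (SE 0.0843, adjusted p = 7.48e-05). Psmb10 fell by 0.42 (SE 0.0970, adjusted p = 0.0022), but was at -0.27 (adjusted p = 0.0545) without WT Myc replicate 1. Nlrc5 was at 0.72 (95% interval -0.16 to 1.60, adjusted p = 0.165). Krt19 and Sox9 summed to 325 to 408 CPM in WT Myc and to 78.3 to 182 CPM in the KO Myc libraries, and both were called lower. The stellate or fibroblast markers summed to 58.4 to 63.3 CPM in WT Myc, 64.4 to 68.1 CPM in the libraries labelled KO1 Myc and 284 to 286 CPM in those labelled KO2 Myc, and 2 of 2 were called higher in the averaged lines. The 3 hepatocyte markers were called lower. The immune markers summed to 2.66 to 2.73 CPM in WT Myc and to 3.37 to 6.67 CPM in the KO Myc libraries, with 1 of 2 called higher. Their part in the result was not tested. This comparison does not depend on which KO line a library came from, but it does rest on the WT Myc label.

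For the 6 genes called above, each labelled line had the same direction. In KO1, 5 of 7 were called, all lower, where 25.1% of all genes were called (12.6% higher and 12.5% lower), with H2-K1 at -1.56, H2-D1 at -1.24, B2m at -0.52, Tap2 at -2.79 and Tapbp at -0.46. In KO2, 7 of 7 were called, 6 lower and 1 higher, where 35.2% were called (17.2% higher and 18% lower), with H2-K1 at -0.49, H2-D1 at -1.11, B2m at -0.28, Tap2 at -3.49, Tapbp at -0.62, Psmb10 at -0.45 and Nlrc5 at 2.07. Several smaller calls depended on single libraries. Tapbp in KO1 was lost without KO1 Myc replicate 1 or 2 (adjusted p = 0.0165 and 0.0154), and Psmb10 in KO2 without WT Myc replicate 1 (adjusted p = 0.0444), KO2 Myc replicate 1 (0.0157) or KO2 Myc replicate 2 (0.0298). Psmb10 in KO1, at -0.38 (adjusted p = 0.0137), was called without WT Myc replicate 2 (-0.52, adjusted p = 0.000949) and with the replicate number as a block (adjusted p = 0.00566). Both comparisons use the same WT Myc libraries.

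Of the 51 other genes, 19 were called for Myc in WT (11 higher, 8 lower), 26 for Myc in the averaged KO lines (9 higher, 17 lower) and 18 for the averaged KO lines against WT with Myc (3 higher, 15 lower), where 44.3%, 42% and 33.8% of all genes were called. None of the 11 other heavy chains was called for Myc in WT by edgeR or DESeq2, with 2 at an unadjusted p below 0.05. In WT, Stat2 rose by 1.36 (SE 0.172, adjusted p = 6.08e-06), Mr1, a presenter of microbial metabolites, by 1.21 (SE 0.231, adjusted p = 0.000331) and Irf1 by 0.84 (SE 0.0700, adjusted p = 6.9e-08). The peptidases Lnpep and Nrd1 and the proteasome activator Psme3 fell in WT, by 0.79, 0.72 and 0.52 (adjusted p = 0.00034, 2.23e-08 and 2.5e-06). In the averaged KO lines, Mr1 (0.89, SE 0.143, adjusted p = 6.6e-05) and Rfx5 (0.80, SE 0.0575, adjusted p = 1.45e-08), a subunit of the RFX complex, rose, as did the peptidase Thop1 (0.51, SE 0.0441, adjusted p = 1.05e-07). The chaperones Calr and Pdia3 fell there by 0.66 and 0.48 (adjusted p = 5.07e-09 and 1.89e-08). Against WT with Myc, H2-Bl fell by 1.35 (SE 0.375, adjusted p = 0.0075), Stat2 by 1.09 (SE 0.135, adjusted p = 7.78e-06) and H2-Q6 by 1.08 (SE 0.214, adjusted p = 0.000651) in the averaged KO lines. Lnpep rose by 0.84 there (SE 0.131, adjusted p = 7.42e-05), Rfx5 by 0.35 (SE 0.0679, adjusted p = 0.000484) and Thop1 by 0.29 (SE 0.0538, adjusted p = 0.000324).

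In the HU experiment, where libraries were shallower, no member was called in any of the 5 comparisons by edgeR. H2-K1 was at 8.57 and 6.77 CPM in WT vehicle, 10.2 and 6.01 in KO vehicle, 9.86 and 19.0 in WT HU and 9.90 and 10.7 in KO HU, from 18 to 55 counts a library. Its WT HU libraries lay far apart, and the KO HU libraries between them. H2-D1 was at 74.1 and 72.9 CPM in WT vehicle, 48.0 and 65.8 in KO vehicle, 86.2 and 96.3 in WT HU and 65.4 and 60.9 in KO HU, with WT above KO at either treatment. B2m was at 183.8 and 183.5 CPM in WT vehicle, 214.7 and 208.5 in KO vehicle, 205.2 and 213.7 in WT HU and 237.9 and 205.1 in KO HU. The KO libraries of B2m thus lay above WT vehicle, unlike in the Myc experiment, but no test across the experiments was made. Levels in WT cells differed between the experiments too. From WT Ctrl to WT vehicle, mean H2-K1 went from 50.2 to 7.67 CPM and B2m from 394 to 184 CPM. Psmb10 went the other way, from 10.5 to 12.9 CPM. Tapbp spanned 29.6 to 39.5 CPM and Psmb10 8.30 to 15.9 CPM over all 8 libraries. Trim33 mRNA was 125 to 142 CPM in WT and 43.8 to 52.2 CPM in KO libraries, with the labels.

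For KO against WT, H2-D1 was lower by -0.36 with vehicle (SE 0.173, adjusted p = 0.181) and by -0.53 with HU (SE 0.166, 95% interval -0.86 to -0.20, adjusted p = 0.0269), which missed the threshold of 0.01 and passed it with the compared groups alone in the fit (-0.53, adjusted p = 0.00665). By edgeR 0 of 5 members were called with vehicle, where 5.58% of all genes were called, and 0 of 5 with HU, where 6.04% were called (3.27% higher and 2.77% lower). H2-D1 was the 1 member with an unadjusted p below 0.05 in each, and DESeq2 called 0. H2-K1 was at 0.06 with vehicle (95% interval -0.86 to 0.99) and at -0.48 with HU (-1.30 to 0.33), B2m at 0.20 (-0.03 to 0.44) and 0.08 (-0.15 to 0.31). The vehicle intervals did not reach the falls with the Ctrl vector in the Myc experiment. Those were -1.20 in KO1 and -2.87 in KO2 for H2-K1, and -0.33 and -0.69 for B2m. The cause of this difference between the experiments was not tested.

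For HU against vehicle, edgeR called 0 of 5 members in WT, where 9.83% of all genes were called (6.39% higher and 3.44% lower), with 1 at an unadjusted p below 0.05, and 0 of 5 in KO, where 6.45% were called (4.65% higher and 1.8% lower), with 0 at that p. DESeq2 called 0 in both. In WT, H2-K1 was at 0.91 (95% interval 0.05 to 1.77, adjusted p = 0.196, 0.37 without WT HU replicate 2 and up to 1.31 without another library), H2-D1 at 0.31 (-0.02 to 0.64) and B2m at 0.19 (-0.05 to 0.43). In KO, H2-K1 was at 0.36 (-0.52 to 1.24), H2-D1 at 0.14 (-0.21 to 0.49) and B2m at 0.07 (-0.17 to 0.30). The difference between these effects was called for 0 of 5 members by edgeR and by DESeq2, with 0 at an unadjusted p below 0.05, where 0.0714% of all genes were called. Among 40 other antigen presentation genes, 6 were called for HU in WT (5 higher, 1 lower) and 3 in KO (3 higher). Rfx5 rose by 2.01 in WT (SE 0.254, adjusted p = 6.66e-09) and 1.92 in KO (SE 0.252, adjusted p = 2.58e-08), and Rela, the NF-kB subunit p65, by 1.35 (SE 0.149, adjusted p = 1.09e-10) and 0.98 (SE 0.154, adjusted p = 2.68e-06). Nfyb, an NF-Y subunit that binds the CCAAT box, rose by 0.91 (SE 0.171, adjusted p = 7.43e-05) and 0.60 (SE 0.167, adjusted p = 0.015), and the peptidase Npepps fell by 0.37 in WT (SE 0.111, adjusted p = 0.0186). KO cells under HU held less Irf1 (-0.83, SE 0.191, adjusted p = 0.00166) and Rela (-0.57, SE 0.140, adjusted p = 0.0036) than WT cells.

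**Figure D5:**
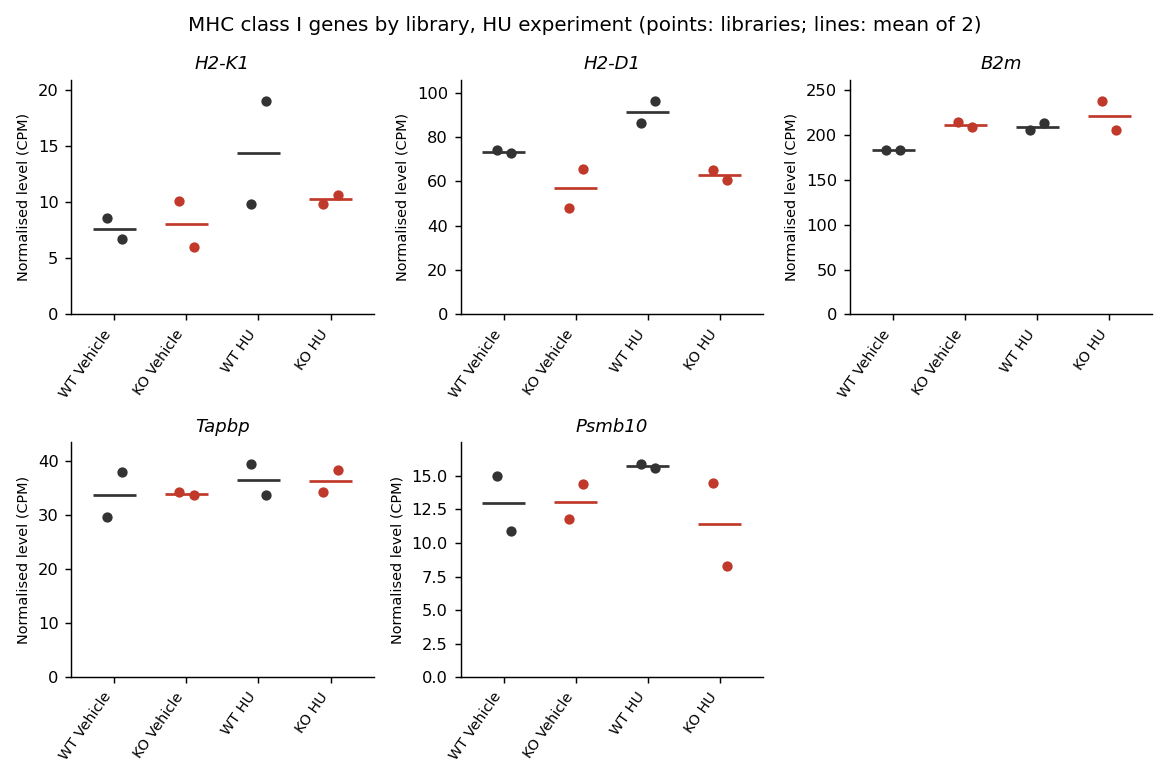
Normalised level (CPM, vertical axis from 0) of the 5 members measured in the 4 groups of the HU experiment, with 1 point per library and a line at the mean of 2. H2-D1 lies at 72.9 to 96.3 CPM in WT and 48.0 to 65.8 CPM in KO libraries, and the WT HU libraries of H2-K1 lie at 9.86 and 19.0 CPM.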

How the data were processed

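RNA-seq counts of p19/Nras cells were analysed, from 12 libraries with a Ctrl or Myc vector and 8 with vehicle or HU, grouped by the sample titles. Per the labels and the paper's methods, the authors mapped reads with STAR 2.5.4 to mm9 and used edgeR 3.26.8 (with bcl2fastq 2.20 and FastQC 0.11.5 for the HU experiment). The counting tool and annotation are not given in the sources used here. The authors deposited whole-number counts of reads per gene, the unit used here, in which no normalization was found. The file name of the Myc experiment calls them normalized. The labels name TRIzol and NEBNext Ultra II, and the methods name other kits. Small counts (1 to 50) were even in 48.4% of cases with Myc and 71.9% with HU. 8 deposited tables of the authors' own comparisons (fold changes and p-values) were not used, and 0 further columns of samples were left out.

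Counts were fitted with edgeR 4.0.16 (limma 3.58.1, R 4.3.3) by the quasi-likelihood test, each experiment alone with all its libraries, TMM factors and 1 coefficient per group. The filter filterByExpr removed 0 genes. The rarest rows totalled 26 and 29 counts, so rare genes may have been removed before deposit. Rows without a symbol, 298 and 168, were tested but are in no list. P-values were adjusted by Benjamini-Hochberg over all genes, with thresholds of 0.01, or 0.05 for HU against vehicle and the difference of HU effects. SE is the log2 fold change over the square root of F. Intervals have 95% confidence, and those of count ratios are exact and cover counting error only. Replicates differed by 2.21 to 11.0 times the counting variance. The common biological coefficient of variation was 0.0498 and 0.102. With 2 libraries per group, tests rest on the spread shared across genes and groups.

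Members and lists were chosen with earlier results of these data known, and no pattern already known is given as independent support. Named were the 10 members and, per main comparison, the 3 called genes with the largest rise and fall of the wider list, unless stated. For single KO lines with Myc and between the KO lines, the genes of the wider list are not named, and 1 gene of that list is not reported here. Averaged KO lines and the KO2 against KO1 comparison with Myc were added after seeing the data. Promoters came from RefSeq (GRCm38.p6), with 5 of 7 measured members matched, and gene positions from GENCODE vM1 on NCBIM37. Alternatives were groups alone, a replicate block, a mean of at least 5 CPM, no filter, RLE factors, DESeq2 1.42.0, an absolute log2 fold change of at least 1, halved HU counts and each library left out. The procedure was tested on simulated data.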

Additional observations from a re-analysis of the deposited data

Results flagged for a closer look

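Differences between the KO lines, or between the effects of Myc in KO and WT cells, passed edgeR's quasi-likelihood test for the following members, as log2 values. KO2 Ctrl was below KO1 Ctrl for H2-K1 (-1.66), H2-D1 (-0.48), B2m (-0.36) and Nlrc5 (-3.73). The libraries labelled KO2 Myc were above those labelled KO1 Myc for H2-K1 (1.07), B2m (0.23) and Nlrc5 (2.70).

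The Myc effect in KO1 minus that in WT was -1.16 for Tapbp, -1.01 for Psmb10 and -3.90 for Nlrc5. In KO2 minus WT it was 2.38 for H2-K1, 0.82 for H2-D1, 0.40 for B2m, -1.39 for Tapbp and -0.91 for Psmb10. For both KO lines averaged it was 1.01 for H2-K1, 0.52 for H2-D1, -1.27 for Tapbp and -0.96 for Psmb10. Values of single KO lines rest on Myc libraries whose line labels run against the genes that separate the lines with the Ctrl vector, which was not resolved here.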

How the results depend on the processing

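With an absolute log2 fold change of at least 1 as a further criterion, fewer members were called by construction: 4 in KO1 and 3 in KO2 against WT with the Ctrl vector, 2 between the KO lines, 1 for Myc in WT, 1 and 2 for Myc in KO1 and KO2, 3 and 3 for KO1 and KO2 against WT with Myc, and 2 for the Myc effect in KO2 minus that in WT. For averaged KO lines these counts were 0 for Myc, 3 against WT with Myc and 2 for the difference of Myc effects. With the compared groups alone in the fit, 1 member (H2-D1) was called in KO against WT under HU, and B2m (adjusted p = 0.0199) and Psmb10 (adjusted p = 0.0205) were not called in KO2 against WT with Myc. Tapbp, not called in KO against WT with vehicle, was at -0.0070 with a mean of at least 5 CPM and -0.025 with HU counts divided by 2, and its difference of HU effects was 0.018 with the latter; the cause was not tested. DESeq2 lost Psmb10 in KO2 against WT (adjusted p = 0.0113) and Tap2 for Myc in WT, and called Nlrc5 for the Myc effect in KO2 minus that in WT (adjusted p = 0.00995). RLE factors changed no member's call. The setting without a filter repeats the main fit, as the filter removed 0 genes.

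Leaving out each library gave 2 to 3 members for Myc in WT and 3 to 5 for the Myc effect in KO1 minus that in WT. Of all genes called, KO2 against KO1 with the Ctrl vector had 2398, 4029 with these groups alone and 1383 to 1475 without single libraries. KO1 and KO2 against WT with Myc had 3291 and 4614, 1541 and 2775 with the groups alone, and 1906 (without KO1 Myc replicate 2) to 4321 and 3110 to 5441 without single libraries. KO against WT under HU had 677, 1099 with the groups alone and 248 to 296 without single libraries. With DESeq2, HU against vehicle had 727 in WT (1102 by edgeR) and 456 in KO (723), KO against WT had 396 with vehicle (626) and 402 with HU, and the difference of HU effects had 5 (8). Without single libraries these ranged from 553 to 933, 389 to 542, 337 to 459 and, for the difference, 0 to 20. KO2 against KO1 with Myc had 2423, and 1519 to 1648 without single libraries. With the further fold criterion, KO1 and KO2 against WT with the Ctrl vector had 2090 (of 6842) and 1691 (of 6545), Myc in WT 1066 (of 5807) and averaged KO lines against WT with Myc 917 (of 4433).

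Replicate numbers pair nothing in the labels, and same-numbered libraries deviated together in some pairs of groups only: r was -0.356 to 0.485 over 15 pairs with Myc, 4 of them above 0.1 and 2 below -0.1, and -0.0241 to 0.0875 over 6 with HU. With a replicate block, 7 and 6 members were called in KO1 and KO2 against WT with the Ctrl vector, 4 for Myc in WT and 0 in each HU comparison, and the block changed only the call of Psmb10 in KO1 against WT with Myc (6 members). Tap2, Nlrc5 and H2-Bl in the Myc experiment, and H2-K1 in the HU experiment, rest on few counts.

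Members that were not called also changed sign when single libraries were left out, with these lowest and highest log2 values. Nlrc5 ranged from -2.65 to 0.37 in KO2 against WT with the Ctrl vector, from -0.39 to 1.12 for Myc in the averaged KO lines and from -1.10 to 0.41 for the difference of that effect from WT. Tap2 ranged from -0.43 to 1.03 for the Myc effect in KO1 minus that in WT. Tapbp ranged from -0.055 to 0.21 in KO2 against KO1 with the Ctrl vector. For Myc in WT, H2-D1 ranged from -0.11 to 0.066 and B2m from -0.058 to 0.042. Psmb10 ranged from -0.059 to 0.14 for Myc in KO2 and from -0.058 to 0.039 in the averaged KO lines. For HU in WT, Tapbp ranged from -0.064 to 0.29. For HU in KO, H2-D1 ranged from -0.050 to 0.39, B2m from -0.044 to 0.17 and Psmb10 from -0.66 to 0.14. In KO against WT with vehicle, H2-K1 ranged from -0.36 to 0.41, Tapbp from -0.16 to 0.19 and Psmb10 from -0.20 to 0.26. In KO against WT with HU, H2-K1 ranged from -0.89 to 0.059, B2m from -0.030 to 0.18 and Tapbp from -0.12 to 0.11. The difference of HU effects ranged from -0.35 to 0.090 for H2-D1 and from -0.20 to 0.16 for Tapbp.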
